A study of Mus musculus with 11 samples.

Results

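The 10 genes described here mark the interneurons of the striatum and were chosen by name. They are Chat, Slc18a3, Slc5a7 and Lhx8 of the cholinergic cells, Sst, Npy and Nos1 of the low-threshold spiking cells, Pvalb of the fast-spiking cells, Lhx6 of their shared lineage and Calb2 of the calretinin cells. All 10 were found in both deposited tables, among 14667 genes in all. RNA came from the nucleus accumbens, the ventral part of the striatum, of 11 C57/BL6 mice, with 1 mouse per library. The 4 control mice carried virally overexpressed GFP (green fluorescent protein) and received saline. The 3 GFP cocaine mice carried the same GFP overexpression and received cocaine, which blocks the reuptake of dopamine. The 4 E2F3a saline mice overexpressed E2F3a, a form of the cell cycle transcription factor E2F3, by virus and received saline. Every mouse thus carried a viral transgene. The type of virus, its promoter, the cells it reached, the cocaine dose and timing, and the age of the mice are absent from the labels and headers used here.

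Most striatal neurons are medium spiny projection neurons, and interneurons are a small minority that shapes their firing. Cholinergic interneurons make acetylcholine with the product of Chat, load it into vesicles with that of Slc18a3 and take choline back up with that of Slc5a7. Low-threshold spiking cells release somatostatin, neuropeptide Y and nitric oxide, while parvalbumin and calretinin are calcium-binding proteins that mark other GABAergic classes. Lhx6 and Lhx8 are LIM homeobox factors of the medial ganglionic eminence, the embryonic region where many of these cells arise. A transcript level in whole tissue counts cells and transcripts together, so fewer cells of a type and less RNA per cell cannot be told apart here.

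The tables hold the authors' comparison statistics and no value per mouse, so a marker's level in each animal, any overlap of the groups and library depth are unknown. The overexpressed gene, E2f3, stood in the authors' deposited table at a log2 fold change of 1.01 (SE 0.20) in E2F3a saline mice against GFP saline mice, with an unadjusted p of 0.000337 and an adjusted p of 1.00 in the authors' moderated test. Of 15 listed symbols of medium spiny neuron markers, 14 were found, with Drd1 and Drd1a, names of the same gene, both listed. Presence alone does not test the tissue label. Of 5 genes of blood cells, all 5 lay lower at an unadjusted p under 0.05 in each comparison, where 7.51% of all genes did with cocaine and 0.409% with E2F3a. The GFP saline mice are the control of both deposited comparisons, so their results are not separate evidence.

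Promoters of the somatostatin gene and of the shared Chat and Slc18a3 locus are shown because the first carries a known cyclic AMP response element and the others belong to nested genes of which Slc18a3 had the smallest p of the markers with E2F3a. The windows run from 250 bases before to 50 bases after the annotated start in RefSeq (GRCm38.p6), which held 12 windows for 9 of the 10 genes, all but Calb2. Capitals mark the cyclic AMP response element TGACGTCA, the site bound by CREB. The Sst window is chr16:23890795-23891094 on the minus strand, the Chat window chr14:32465860-32466159 on the minus strand, and the Slc18a3 window chr14:32464801-32465100 on the minus strand.
Sst: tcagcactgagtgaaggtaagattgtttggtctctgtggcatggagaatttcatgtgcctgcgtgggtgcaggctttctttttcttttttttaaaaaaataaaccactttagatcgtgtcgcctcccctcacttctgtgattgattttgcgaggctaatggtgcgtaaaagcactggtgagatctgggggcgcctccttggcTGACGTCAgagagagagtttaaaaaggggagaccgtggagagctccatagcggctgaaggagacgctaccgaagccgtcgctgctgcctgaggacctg
Chat: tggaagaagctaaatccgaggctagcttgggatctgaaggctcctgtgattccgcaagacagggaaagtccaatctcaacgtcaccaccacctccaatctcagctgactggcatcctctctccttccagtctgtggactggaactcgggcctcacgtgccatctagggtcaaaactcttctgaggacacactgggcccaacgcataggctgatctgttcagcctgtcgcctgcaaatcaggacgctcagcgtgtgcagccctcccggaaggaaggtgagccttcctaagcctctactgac
Slc18a3: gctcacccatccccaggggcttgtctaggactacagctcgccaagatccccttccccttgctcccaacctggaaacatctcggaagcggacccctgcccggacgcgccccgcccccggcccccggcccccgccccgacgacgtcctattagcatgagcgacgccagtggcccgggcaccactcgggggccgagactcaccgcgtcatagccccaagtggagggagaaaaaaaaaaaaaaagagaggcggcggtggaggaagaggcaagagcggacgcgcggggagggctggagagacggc

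On either strand, TGACGTCA was found in 588 of 32851 mouse promoter windows (1.79%) and in 1 of the 12 marker windows, that of Sst, where it began 48 bases before the start. Sites for E2F factors were sought as TTTGGCGC, TTTCCCGC, TTTGCCGC and TTTCGCGC on both strands. One or more of these 4 spellings lay in 744 windows (2.26%) and in 0 of the 12 marker windows. A match describes letters only, and its absence says no more than that these letters are not in these windows.

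Sst and Npy stood far above the other markers in level. On the scale of mean log2 expression per kilobase of merged exons, over the libraries of the authors' fit, the level of Sst was 6.88 and that of Npy 5.85. The gap of 1.03 between them exceeded the spread between mice implied for either gene, as did the gap of 2.91 from Npy to the next marker, Slc5a7, at 2.94. Below it came Calb2 at 2.66, Nos1, neuronal nitric oxide synthase, at 2.63, Lhx6 at 2.39, Lhx8 at 1.95, Chat at 1.80, Pvalb at 1.54 and Slc18a3 at 1.48. Each neighbouring pair from Slc5a7 down to Slc18a3 differed by less than the larger implied SD of the pair, so the order of neighbours is not resolved, while Slc5a7 lay above Chat and Slc18a3 by more than their SDs. Chat rested on its annotation, since 1 merged exon of 1739 bases adds to its merged length, and per kilobase of its longest transcript its level was 2.52. Among all genes per kilobase, Sst was at percentile 98.4 and Npy at percentile 95.6.

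**Figure D1:**
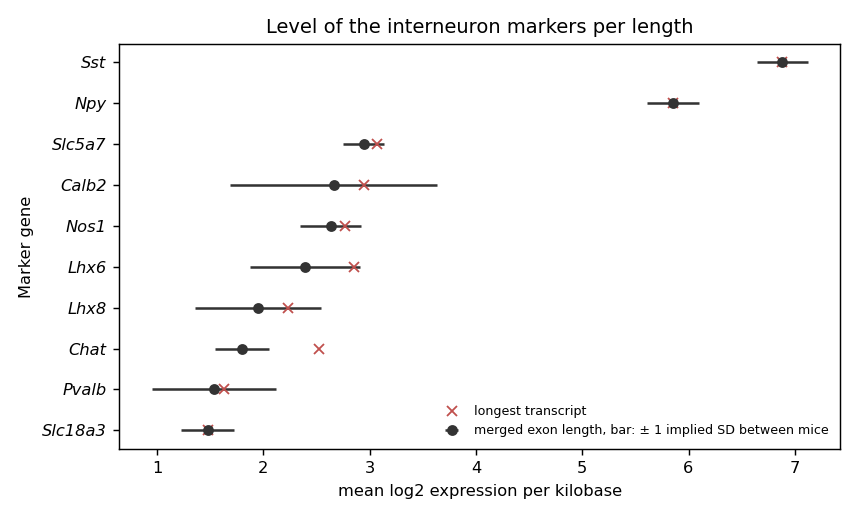
Mean log2 expression per kilobase (x axis) of the 10 interneuron markers (y axis), with black points for merged exon length, bars of 1 implied SD between mice on either side, and red crosses for the longest transcript. Sst at 6.88 and Npy at 5.85 stand apart, and among the 8 other genes the bars of neighbours run into each other.

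The markers differed widely in how much they varied from mouse to mouse. The spread was taken as the residual SD that the deposited log2 fold changes and t statistics imply, in log2 units, and set against the 500 genes nearest in mean expression. Calb2, which encodes calretinin, had an implied SD of 0.977, above every one of its 500 neighbours and 4.48 times their median of 0.218. Lhx8 followed with an SD of 0.593 at percentile 97.0, Pvalb with 0.585 at percentile 90.8 and Lhx6 with 0.520 at percentile 98.2. These 4 of 10 markers lay above the 90th percentile of their neighbours. These percentiles are a description with no test, and the SD is moderated across genes by the authors' fit.

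The transmitter genes had smaller SDs, but beside genes of like expression Nos1 came close to Pvalb, at percentiles 87.8 and 90.8. The implied SD was 0.196 for Slc5a7 at percentile 64.0, 0.253 for Chat at percentile 73.8 and 0.251 for Slc18a3 at percentile 48.6. It was 0.239 for Sst at percentile 82.0, 0.243 for Npy at percentile 79.4 and 0.286 for Nos1 at percentile 87.8. Within the cholinergic set, Lhx8, the factor that specifies these neurons during development, thus had a larger SD than the enzyme and both transporters. Within the GABAergic set, Lhx6 had a larger SD than Sst, Npy and Nos1, which are expressed in cells of its lineage.

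**Figure D2:**
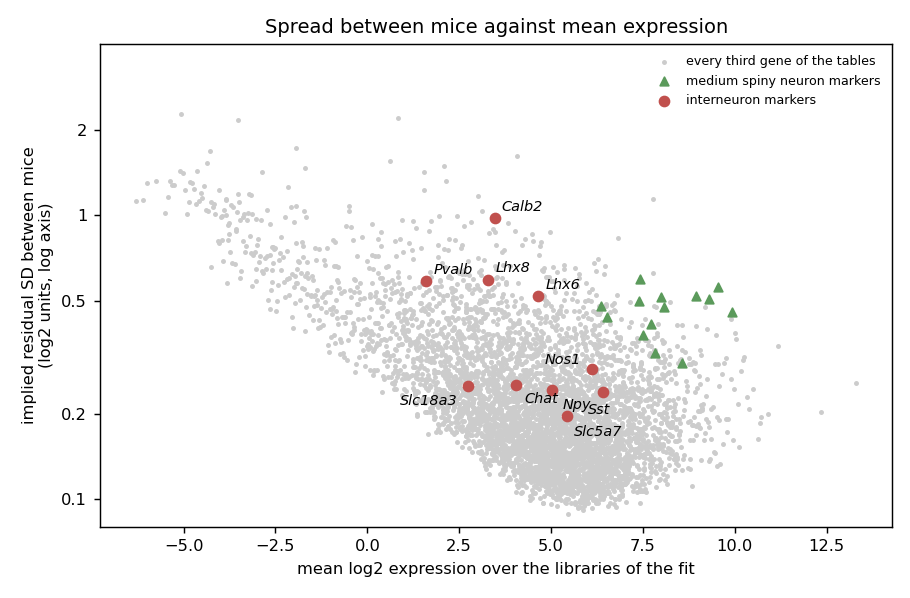
Implied residual SD between mice (y axis, log2 units on a log axis) against mean log2 expression (x axis), with grey points for a regular subset of all genes, green triangles for medium spiny neuron markers and red circles for the interneuron markers. Calb2 at 0.977, Lhx8 at 0.593, Pvalb at 0.585 and Lhx6 at 0.520 sit above most genes of their expression, and the other 6 markers lie between 0.196 and 0.286.

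Some other gene lists varied from mouse to mouse as well, and not only those of neurons. Of 14 medium spiny neuron markers, 12 lay above the 90th percentile of spread, and the SDs of all 14 ran from 0.302 to 0.597. Of 7 markers of neurons in neighbouring regions 4 lay above it, and of 5 cortical excitatory markers 2 did. So did 6 of 9 leukocyte genes and 3 of 7 oligodendrocyte markers. Among lists nearer to the markers, 5 of 8 acetylcholine receptors, 6 of 15 lineage factors and 5 of 12 genes of other GABAergic classes did. So did 3 of 11 genes of fast-spiking cells and 2 of 7 genes of the nitric oxide list. The counts were 1 of 6 receptors for somatostatin and neuropeptide Y and 1 of 8 cholinergic neuron genes. Of 5 genes for the synthesis and transport of GABA, 0 did. Of all genes, 9.995% lay above the 90th percentile of their neighbours. Slc17a7, the vesicular glutamate transporter of cortical neurons, had an SD of 1.94 and Slc17a6, that of thalamic and other subcortical neurons, 1.73; both were picked after their values were seen. Without values per mouse, whether Calb2, Lhx6, Lhx8 and Pvalb vary in the same mice as these genes was not tested.

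The first comparison set GFP cocaine mice against GFP saline mice, and no interneuron marker passed the authors' moderated test, whose column names are those of limma. Of the 10 markers, 0 had an adjusted p under 0.05 (0% of all genes did) and 0 had an unadjusted p under 0.05, against 9.25% of all genes. Estimates lay above 0 for 8 markers, beside 46.2% of all genes, and below 0 for Pvalb and Slc18a3. That lean was not particular to the markers. Above 0 were also 12 of 14 medium spiny neuron markers, 7 of 8 acetylcholine receptors and 5 of 5 genes for GABA synthesis and transport. Of genes of other GABAergic classes 5 of 12 were. The median of the 10 log2 fold changes was 0.18, and that of all 14667 genes was -0.02. All 10 of the 95% intervals held 0.

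Among the cholinergic genes, the authors' deposited table gives Slc5a7, the choline transporter, a log2 fold change of 0.17 (SE 0.15, 95% interval -0.16 to 0.50) with cocaine. Chat, choline acetyltransferase, stood at 0.09 (SE 0.19, interval -0.33 to 0.52) in the authors' deposited table, and Slc18a3, the vesicular acetylcholine transporter, at -0.14 (SE 0.19, interval -0.56 to 0.27). As folds, the intervals run from 0.898 to 1.41 for Slc5a7 and from 0.680 to 1.21 for Slc18a3, which bounds a change in either direction. Lhx8 was at 0.35 with an SE of 0.45 in the authors' deposited table, an interval from -0.64 to 1.34.

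The low-threshold spiking markers all had estimates above 0 with cocaine. Nos1 had the smallest p of the 10 markers in the authors' deposited table, at 0.36 (SE 0.22, interval -0.12 to 0.84, unadjusted p = 0.126, adjusted p = 0.568 in the authors' moderated test). Sst stood at 0.20 (SE 0.18, interval -0.20 to 0.60) and Npy at 0.14 (SE 0.19, interval -0.26 to 0.55) in the authors' deposited table. The folds were 1.29 for Nos1, 1.15 for Sst and 1.11 for Npy, and none of the 3 passed the test.

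The remaining GABAergic markers were less precise. Pvalb was at -0.55 (SE 0.47, interval -1.58 to 0.47), Lhx6 at 0.42 (SE 0.40, interval -0.45 to 1.29) and Calb2 at 0.57 (SE 0.75, interval -1.08 to 2.21) in the authors' deposited table. For Calb2 the interval spans folds from 0.474 to 4.63, so changes within that range are not excluded.

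The second comparison set E2F3a saline mice against GFP saline mice. Slc18a3 was the 1 marker of 10 with an unadjusted p under 0.05, a share to be read against 0.955% of all genes, and it was lower. In the authors' deposited table the log2 fold change of Slc18a3 was -0.53 with an SE of 0.18 and a 95% interval from -0.92 to -0.13, or 0.693 as a fold. By the authors' moderated test the unadjusted p was 0.0132 and the adjusted p over all genes 1.00, so Slc18a3 did not pass. Of the 10 markers, 0 had an adjusted p under 0.05 (0% of all genes). Estimates lay above 0 for 5 markers, beside 52.5% of all genes, and below 0 for 5. Their median was -0.01, beside 0.01 for all genes.

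The other cholinergic genes lay closer to 0 with E2F3a. Chat was at -0.12 (SE 0.18, interval -0.52 to 0.27) and Slc5a7 at -0.06 (SE 0.14, interval -0.36 to 0.25) in the authors' deposited table, and Lhx8 at 0.16 (SE 0.42, interval -0.76 to 1.08). The intervals of Chat and Slc18a3 overlap, and the difference between these genes could not be tested without values per mouse. Slc18a3 is a gene of 1 exon (ENSMUSG00000100241, mm10 chromosome 14, 32462438 to 32464850, minus strand) that starts 1139 bases downstream of the start of Chat (chromosome 14, 32408203 to 32465989, minus strand), within intron 1 of its transcript Chat-201. The merged exons of Slc18a3 and Chat share 0 bases in GENCODE M21, on the same assembly. The library kit named in the labels does not mark strand, and how reads of nested genes were assigned is not given in the sources used here.

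**Figure D3:**
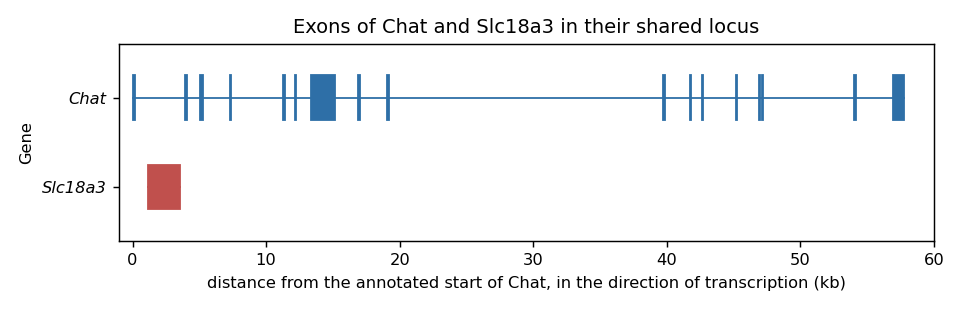
Map of the exons (boxes) of Chat and Slc18a3 by distance in kilobases from the annotated start of Chat (x axis), in the direction of transcription, with 1 gene per row. The 1 exon of Slc18a3 starts 1139 bases after the start of Chat and lies between exons of Chat without touching them.

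The low-threshold spiking markers showed the narrowest bounds among the GABAergic genes. Sst stood at -0.10 (SE 0.17, interval -0.47 to 0.27), Npy at -0.11 (SE 0.17, interval -0.49 to 0.27) and Nos1 at 0.04 (SE 0.20, interval -0.41 to 0.48) with E2F3a in the authors' deposited table. As folds, the intervals were 0.720 to 1.20 for Sst and 0.712 to 1.20 for Npy. Pvalb was at 0.05 (SE 0.40, interval -0.82 to 0.92), Lhx6 at 0.16 (SE 0.37, interval -0.65 to 0.97) and Calb2 at 0.57 (SE 0.69, interval -0.94 to 2.08) in the authors' deposited table.

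The shared control cancels when E2F3a saline mice are set directly against GFP cocaine mice. These groups differ in both transgene and drug, whose parts cannot be told apart in this comparison. The difference was taken as the E2F3a log2 fold change minus the cocaine log2 fold change. Its SE assumes equal weight for every library, so its p-values are approximate. Of the 10 markers, 0 had an unadjusted p under 0.05, against 4.54% of all genes, and 0 an adjusted p under 0.05 (0% of all genes). Estimates were below 0 for 8 markers and above 0 for Pvalb and Calb2, where 57.7% of all genes were above 0. The median was -0.24 beside 0.03 for all genes. This lean was not particular to the markers. Below 0 were also 13 of 14 medium spiny neuron markers, 8 of 8 acetylcholine receptors and 7 of 7 genes of the nitric oxide list. Of genes of other GABAergic classes 6 of 12 were. Slc18a3 had the smallest p, with a difference of -0.39 (SE 0.19, interval -0.81 to 0.03, approximate unadjusted p = 0.0679, approximate adjusted p = 0.925). Sst was at -0.30 (SE 0.18), Nos1 at -0.32 (SE 0.22), Npy at -0.26 (SE 0.19), Slc5a7 at -0.23 (SE 0.15) and Chat at -0.22 (SE 0.19). Pvalb stood at 0.60 with an SE of 0.45, and Calb2 at 0.0016 with an SE of 0.75. All 10 of the intervals held 0.

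**Figure D4:**
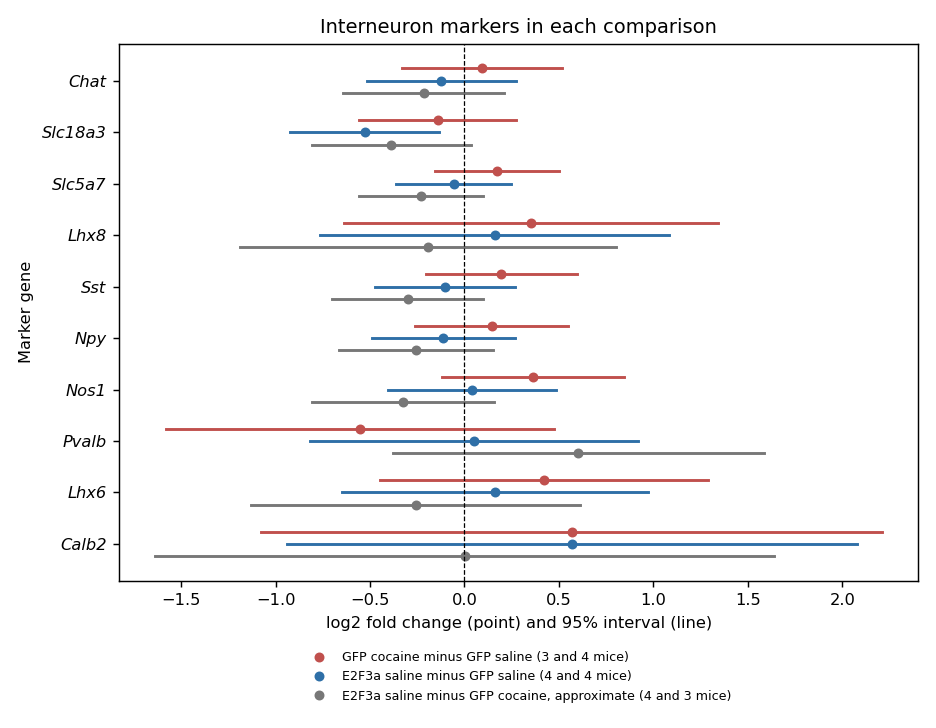
Log2 fold change (points, x axis) with 95% interval (lines) for each interneuron marker (y axis), in red for GFP cocaine minus GFP saline, in blue for E2F3a saline minus GFP saline and in grey for the approximate difference E2F3a saline minus GFP cocaine. The interval of Slc18a3 with E2F3a, -0.92 to -0.13, is the 1 interval of the 30 drawn that leaves out 0.

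Genes that work beside the markers were read from 8 lists. Of 8 measured cholinergic neuron genes, 0 had an unadjusted p under 0.05 in either comparison. Of all genes 9.25% did with cocaine and 0.955% with E2F3a, so a count of 0 in a list this short does not set it apart. The medians were 0.08 for cocaine and -0.04 for E2F3a. In the authors' deposited table for E2F3a, Tacr1, a receptor for substance P, stood at -0.20 (SE 0.17) and Slc17a8, the vesicular glutamate transporter that cholinergic interneurons carry, at 0.20 (SE 0.14). Of 8 measured acetylcholine receptors, 0 had an unadjusted p under 0.05 in either comparison, beside the same shares of all genes. Their medians were 0.20 and 0.08. Chrm5, a muscarinic receptor, was at 1.28 (SE 0.68) with cocaine and at 1.04 (SE 0.65) with E2F3a in the authors' deposited tables. Its mean log2 expression was low, 1.13 at percentile 8.8 of all genes, and its spread was at percentile 97.0 of its neighbours.

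The nitric oxide list holds both targets of nitric oxide and partners of its synthase. Of its 7 measured genes, 7 had estimates above 0 with cocaine (median 0.35), where 46.2% of all genes did. Other neuronal lists leaned the same way, with 5 of 5 genes for GABA synthesis and transport and 7 of 8 acetylcholine receptors above 0. The lean is thus not particular to the nitric oxide list, though of genes of other GABAergic classes 5 of 12 were above 0. At an unadjusted p under 0.05 in the higher direction there was 1 of the 7 genes of the nitric oxide list, beside 1.74% of all genes. That gene was Nos1ap, an adaptor that binds neuronal nitric oxide synthase, at 0.46 (SE 0.20, unadjusted p = 0.0450 in the authors' moderated test) in the authors' deposited table. Gucy1a2, a subunit of the guanylate cyclase that nitric oxide activates, stood at 0.74 (SE 0.35) and Prkg1, a kinase that cyclic GMP activates, at 0.37 (SE 0.19) in the authors' deposited table. With E2F3a the list had a median of 0.19 and 0 of 7 genes at an unadjusted p under 0.05, beside 0.955% of all genes. Its adjusted calls numbered 0 in either comparison.

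Of 6 measured receptors for somatostatin and neuropeptide Y, 1 had an unadjusted p under 0.05, lower with E2F3a, where 0.409% of all genes did. It was Sstr2, a somatostatin receptor, at -0.41 (SE 0.16, unadjusted p = 0.0292 in the authors' moderated test) in the authors' deposited table, and at -0.20 (SE 0.18) with cocaine. Sstr4, another somatostatin receptor, was at 0.62 (SE 0.31) with cocaine and 0.47 (SE 0.29) with E2F3a in the authors' deposited tables. The medians over the receptors were 0.10 with cocaine and 0.03 with E2F3a.

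Of 11 measured genes of fast-spiking cells, 0 had an unadjusted p under 0.05 in either comparison. The shares of all genes were 9.25% with cocaine and 0.955% with E2F3a, and the list medians were 0.18 and 0.04. Erbb4, a neuregulin receptor of these cells, was at 0.43 (SE 0.21) with cocaine in the authors' deposited table. Of 12 genes of other GABAergic classes, 0 had an unadjusted p under 0.05 in either comparison, beside those same shares. Their medians were -0.03 and 0.04. Th, tyrosine hydroxylase, which marks one such class and also dopamine fibres, stood at -0.42 (SE 0.22) with E2F3a in the authors' deposited table, and Tac2, a tachykinin precursor, at 0.77 (SE 0.51).

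Among 15 measured lineage factors, 1 was higher and 1 lower with cocaine at an unadjusted p under 0.05, where 1.74% and 7.51% of all genes were. With E2F3a the count was 0, beside 0.955% of all genes. Etv1, an ETS family factor, was at 0.28 (SE 0.11) and Satb1, a chromatin organiser of interneurons derived from the medial ganglionic eminence, at -0.57 (SE 0.25) with cocaine in the authors' deposited table. Satb1 is also expressed in leukocytes, and in the same comparison 9 of 9 leukocyte genes and 5 of 10 microglia markers lay lower at an unadjusted p under 0.05, with medians of -1.47 and -0.39. The part of those cells in the Satb1 value was not tested. Of 5 genes for the synthesis and transport of GABA, 1 was higher with cocaine at that threshold, Abat, the GABA transaminase, at 0.31 (SE 0.14), while the authors' deposited table has Gad2, which makes GABA, at 0.23 (SE 0.15). The medians of those 5 were 0.23 with cocaine and 0.06 with E2F3a.

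**Figure D5:**
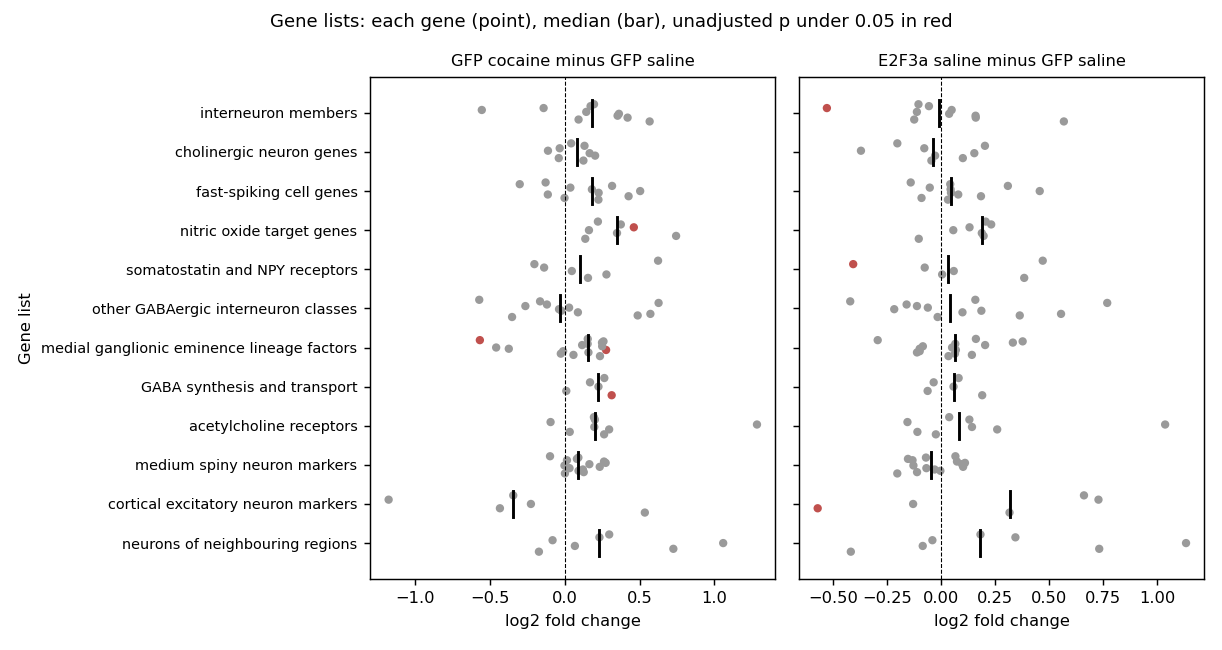
Log2 fold changes (x axis) of the genes of each list (y axis, 1 point per gene) for cocaine (left) and E2F3a (right), with a black bar at the list median and red for an unadjusted p under 0.05. The interneuron markers have medians of 0.18 and -0.01, and 1 red point among them, Slc18a3 with E2F3a.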

How the data were processed

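Per the labels' protocols, poly-A RNA went into TruSeq v2 libraries that were read single-end. The mm10 build and the tools HTSeq 0.6.0, TopHat2 2.0.9 and Bowtie2 2.1.0 appear in the submitters' processing notes, with no roles. The authors deposited 2 tables of comparison statistics. Per the file headers, the columns give each gene's log2 fold change, its mean log2 expression, t and log odds as scores, and a p-value before and after adjustment, all under limma's column names. How values were normalized, filtered and tested is not stated, and depth per sample is unknown. The antilogs of the deposited mean log2 expression sum to 986624, close to what CPM values sum to, and which libraries it averages is not stated.

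Dividing each log2 fold change by its t gave the SE, and 95% intervals use the 11.29 degrees of freedom that the p-values imply. The deposited adjusted p-values equal a Benjamini-Hochberg adjustment over all 14667 genes. Groups follow the sample titles (4, 3 and 4 mice). The p-values judge a mean difference against the spread between mice, moderated across genes. The implied residual SD is the geometric mean of the SDs from both tables with equal library weights. The median ratio of SEs was 1.08, as group sizes give. For Pvalb it was 1.18, so equal weighting fits that gene less well. Lengths are from GENCODE M21. The derived difference was compared with a direct fit on simulated data only. The outcome is not reported here, and the p-values of the difference remain approximate. The markers and gene lists were chosen with earlier results of these data known. Named genes are all markers, E2f3 and at most 4 genes of a pathway list by smallest p, of which some are not reported here; Slc17a7 and Slc17a6 were added after their values were seen. A search for genes most like a marker needs values per library and was not made. Alternatives were other thresholds, centring, an expression filter, a trend correction and other sources of the SE. Python 3.11.15, numpy 2.4.6, scipy 1.17.1, pandas 2.3.3 and matplotlib 3.10.9 were used.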

Additional observations from a re-analysis of the deposited data

How the results depend on the processing

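No paired analysis was possible because the tables hold no value per library, and leaving out each replicate could not be run for the same reason. Of 40 recomputed marker log2 fold changes, 37 kept their direction and stayed short of an adjusted p of 0.05. In 20 of the 40 only the median of all genes was subtracted, -0.020 with cocaine and 0.0077 with E2F3a. That shift is smaller than every marker's estimate, so no sign could change there. Removing the trend with expression and transcript length kept 17 directions and changed the sign of 3. These were Slc18a3 with cocaine (0.012), Sst with E2F3a (0.011) and Nos1 with E2F3a (-0.10); before it they stood at -0.14, -0.10 and 0.04. With that trend removed, Nos1 with cocaine stood at 0.16 in place of 0.36, Sst at 0.36 in place of 0.20 and Npy at 0.33 in place of 0.14. Sst, and no longer Nos1, then had the smallest unadjusted p of the 10 markers with cocaine. In the same setting 1 gene of the cocaine table passed an adjusted p of 0.05, in place of 0. At an unadjusted p under 0.05 there were 1356 genes with cocaine and 140 with E2F3a, in place of 0 adjusted. The count of markers with E2F3a went from 1 to 0 at an unadjusted p under 0.01 and with an expression filter at the 25th percentile, which leaves out Slc18a3. With the trend removed, the median of the markers was 0.27 with cocaine and 0.0012 with E2F3a, while a mean weighted by precision was 0.14 with cocaine and -0.11 with E2F3a. Alternatives chosen after seeing the data put Pvalb at percentile 89.0 of spread among 1000 neighbouring genes, and left Calb2, Lhx6 and Lhx8 above the 90th percentile in each of 4 settings. They also gave 2 in place of 1 genes of the nitric oxide list, 1 in place of 0 peptide receptors and 0 in place of 1 GABA genes at an unadjusted p under 0.05 with cocaine. Precision limits Calb2 most, with an SE of 0.75 for cocaine.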
